A study of Rattus norvegicus with 8 samples.

Results

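The thalamus lies directly beneath the hippocampus, and the habenula borders it near the midline, so that both are neighbours of the tissue taken for the arrays described here. Genes that are strongly expressed in these structures were followed in hippocampal RNA: Slc17a6, Tcf7l2, Prkcd, Rora, Ramp3, Plekhg1, Lef1, Rgs16, Zic1 and Gbx2. The members were fixed as a list of 10 gene symbols, and every probe whose gene name equalled one of them was taken, which gave 14 probes out of 30367 on the array. Of the 10 genes, 9 had a probe bright enough to test, among 18803 features tested in all. Gbx2 did not.

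Male Sprague Dawley rats aged 3 months received either vehicle or Y+I, the combination of yohimbine and imipramine, for 7 days, and the hippocampus was taken 2 h after treatment. Yohimbine is an antagonist of alpha2-adrenoceptors, and imipramine, a tricyclic antidepressant, blocks the transporters that take noradrenaline and serotonin back up. Each group held 4 animals, with 1 array (a single colour) per animal, and every group mean below has n = 4, a number that limits its precision. Doses are not given in the sources used here, and neither drug alone was analysed here.

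Thalamic relay neurons are glutamatergic and load their vesicles mainly with the transporter VGLUT2, whereas pyramidal and granule neurons of the hippocampus use mainly VGLUT1. The transcription factor TCF7L2 keeps postmitotic thalamic and habenular neurons in their regional identity, and LEF1 is a factor of the same family that is prominent in parts of the thalamus. The markers are not exclusive: several of them are also expressed at a lower level in the hippocampus, in interneurons or in glia. In bulk tissue, fewer cells of a type and less RNA per cell cannot be told apart.

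The 8 arrays lay on a single slide that was scanned once, and since vehicle filled one row and Y+I the next, row and treatment cannot be told apart. The share of spots well above background was 76.4% to 79.7% on vehicle arrays and 64.4% to 74.8% on Y+I arrays, lowest on those of Y+I animals 2 and 3. Of 16 genes listed as markers of hippocampal neurons, 15 were tested and 12 exceeded background clearly on each of the 8 arrays. Of 20 further genes known from the thalamus, 16 were so too, and detection alone thus does not tell these tissues apart. Signals are given below as normalised log2 signals, that is, log2 of a probe's processed signal relative to the 75th percentile of its array, so a value of 0 is a bright probe and differences of these values are log2 fold changes. A probe counted as well above background where the scanner software marked it so, and the groups were compared with limma over all features, with p-values adjusted after Benjamini and Hochberg. Over all features, limma called 2.33% at an adjusted p under 0.05, 1.6% lower in Y+I and 0.739% higher. After normexp, a model-based background correction used as an alternative, this split turned from 300 lower and 139 higher to 203 lower and 401 higher, so the balance of directions over all genes depends on how background is treated.

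Of the 9 markers tested, 1 passed the threshold (Slc17a6, which fell), against the 2.33% of all features that changed in either direction. The remaining 8 did not pass. By sign alone, 5 lay lower in Y+I (Slc17a6, Prkcd, Rora, Ramp3 and Lef1) and 4 lay higher (Tcf7l2, Plekhg1, Rgs16 and Zic1), while 54.1% of all features lay lower. In 3 of the 9, all of them lower, no Y+I animal overlapped a vehicle animal (Slc17a6, Prkcd and Lef1); such a separation was seen in the lower direction for 6.65% of all features, in the higher direction for 5.04% and in either direction for 11.7%. The same 3 had p under 0.05 without adjustment, as did 15.6% of all features, 9.16% on the lower and 6.46% on the higher side. The median log2 difference of the 9 was -0.32, against -0.02 over all features. After normexp correction it was 0.040, against 0.090 over all features, so the sign of that median is not settled by these data.

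**Figure D1:**
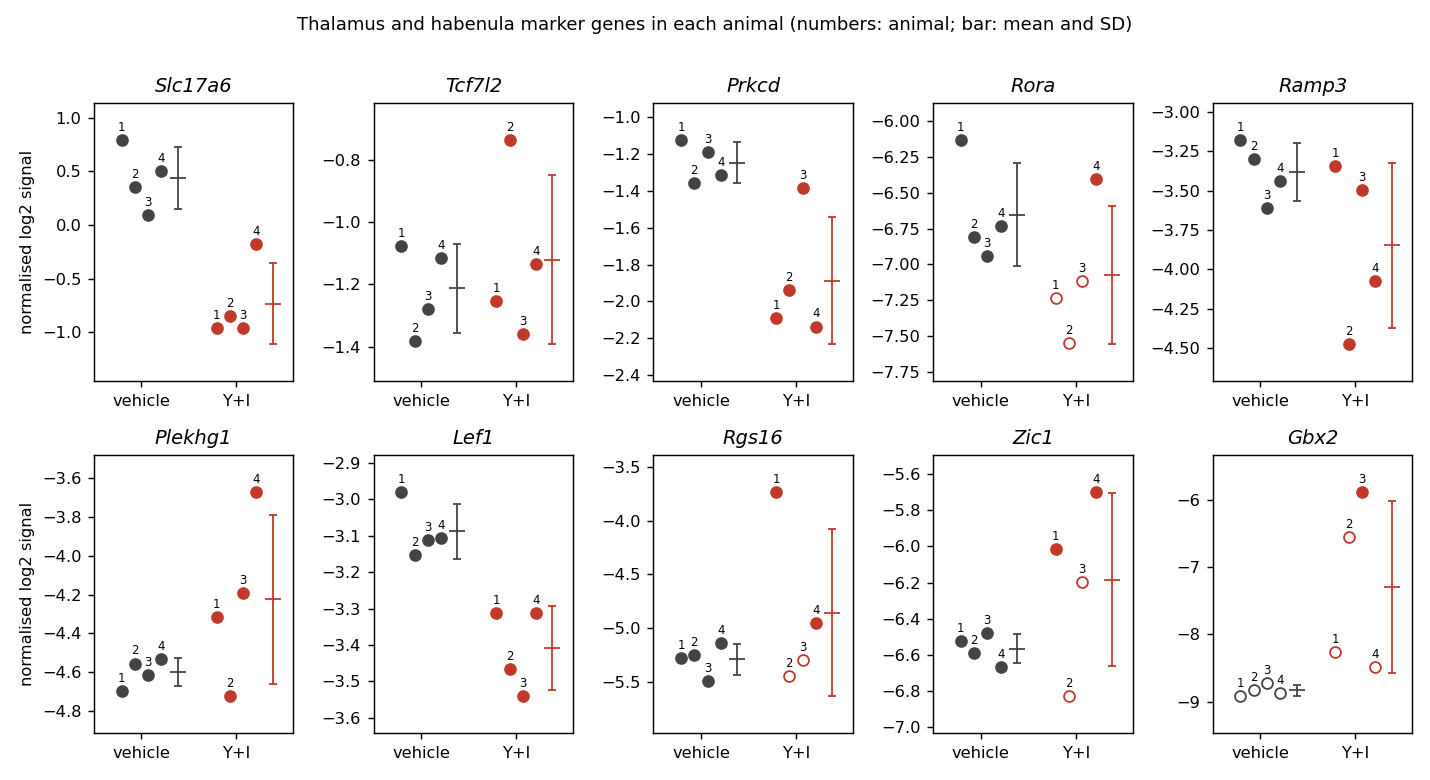
Normalised log2 signal (relative to the 75th percentile of each array; vertical axes differ between genes) of each marker gene in 4 vehicle and 4 Y+I animals. Points are animals, labelled by animal number, filled where the probe was well above background and open where it was not, and bars show the mean and SD. Slc17a6, Prkcd and Lef1 are the tested genes whose groups do not overlap. Gbx2 was well above background on 1 array alone.

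Slc17a6 encodes VGLUT2, the vesicular glutamate transporter of thalamic and many other subcortical neurons. Its probe lies at chr1:101465828-101465887 of the rat build rn4. Vehicle animals 1 to 4 had normalised log2 signals of 0.79, 0.36, 0.09 and 0.50, and Y+I animals 1 to 4 had -0.96, -0.85, -0.96 and -0.17. All 4 Y+I animals lay below all 4 vehicle animals. Within Y+I, animals 1 to 3 sat close together and animal 4 stood nearer to the vehicle values. The mean fell from 0.44 ± 0.29 (SD, n = 4) to -0.74 ± 0.38, a log2 difference of -1.17 with an SE of 0.21, or 2.25-fold (limma adjusted p = 0.0291).

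The Slc17a6 probe was printed on 10 spots of each array. The SD between those spots was 0.024 to 0.122 log2 units, well under the SD between animals in either group. The difference was nearly the same after normexp correction, at -1.11 (adjusted p = 0.0106). It kept its sign whichever array was left out, between -1.36 and -1.05, but passed the threshold in only 2 of those 8 fits: adjusted p was 0.0432 without vehicle animal 3, 0.0159 without Y+I animal 4 and at most 0.0967, without vehicle animal 4. Without Y+I animals 2 and 3 together the difference was -1.004 (adjusted p = 0.153).

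Prkcd encodes protein kinase C delta, a calcium-independent kinase abundant in many thalamic relay neurons. Its signal in vehicle animals 1 to 4 was -1.13, -1.36, -1.19 and -1.32, and in Y+I animals 1 to 4 it was -2.09, -1.94, -1.38 and -2.14. The groups did not overlap, but Y+I animal 3 came within a small step of the lowest vehicle animal. The mean went from -1.25 ± 0.11 to -1.89 ± 0.35, a log2 difference of -0.64 with an SE of 0.17, or 1.56-fold (limma adjusted p = 0.101).

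Prkcd did not pass, and its call depended on Y+I animal 3 and on other settings. Without that animal the log2 difference was -0.81 (adjusted p = 0.0171), and without Y+I animals 2 and 3 it was -0.87 (adjusted p = 0.0318). It also passed when arrays were weighted by their quality (adjusted p = 0.043) and without a filter on background (adjusted p = 0.0476). Leaving out Y+I animal 3 thus brought Prkcd below the threshold while Slc17a6 then missed it. The Prkcd probe, at chr16:5954516-5954575 of rn4, was also printed on 10 spots, with an SD between spots of 0.035 to 0.131.

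Ramp3 encodes a single-pass accessory protein that joins receptors of the calcitonin family and sets which peptide they bind. Vehicle animals 1 to 4 had signals of -3.18, -3.30, -3.61 and -3.44, and Y+I animals 1 to 4 had -3.35, -4.48, -3.49 and -4.07. Y+I animals 2 and 4 were the low ones, and animals 1 and 3 lay inside the vehicle range. The log2 difference was -0.47 with an SE of 0.24 (limma adjusted p = 0.400), and it was -0.16 after normexp correction.

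Rgs16 encodes an activator of the GTPase activity of G-protein alpha subunits, which ends signalling through their receptors. It was -5.28, -5.26, -5.50 and -5.14 in vehicle animals 1 to 4 and -3.73, -5.45, -5.30 and -4.95 in Y+I animals 1 to 4. One animal carried the difference: Y+I animal 1 stood far above all other animals, which spanned a narrow range. The log2 difference of 0.44 had an SE of 0.34 (limma adjusted p = 0.586) and was 0.06 without Y+I animal 1. In Y+I, the Rgs16 probe was above background on the arrays of animals 1 and 4 and not on the others.

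Plekhg1 had 2 probes, at chr1:34677698-34677757 and chr1:34677506-34677565 of rn4, and lay higher in Y+I on both. The brighter probe read -4.70, -4.56, -4.62 and -4.53 in vehicle animals 1 to 4 and -4.31, -4.72, -4.19 and -3.67 in Y+I animals 1 to 4. Y+I animal 2 lay just below the lowest vehicle animal, while the 3 other Y+I animals lay above the highest one, animal 4 furthest. The log2 difference was 0.38 with an SE of 0.20 (limma adjusted p = 0.407). On the other probe the groups did not overlap and the log2 difference was 0.71. Normexp correction made that second probe the brighter of the pair, and Plekhg1 then passed as higher in Y+I, with a log2 difference of 0.53 (adjusted p = 0.0173).

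Tcf7l2 also had 2 probes that passed the filter, and neither moved by more than the spread between animals. On the brighter one, at chr1:262226651-262226710 of rn4, vehicle animals 1 to 4 had signals of -1.08, -1.38, -1.28 and -1.12 and Y+I animals 1 to 4 had -1.25, -0.74, -1.36 and -1.13. The groups overlapped throughout, with Y+I animal 2 the single high value. The log2 difference was 0.09 with an SE of 0.15 (limma adjusted p = 0.820), and on the other probe it was -0.07. Its sign also turned when Y+I animal 2 was left out, to -0.04, and with array weights.

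**Figure D2:**
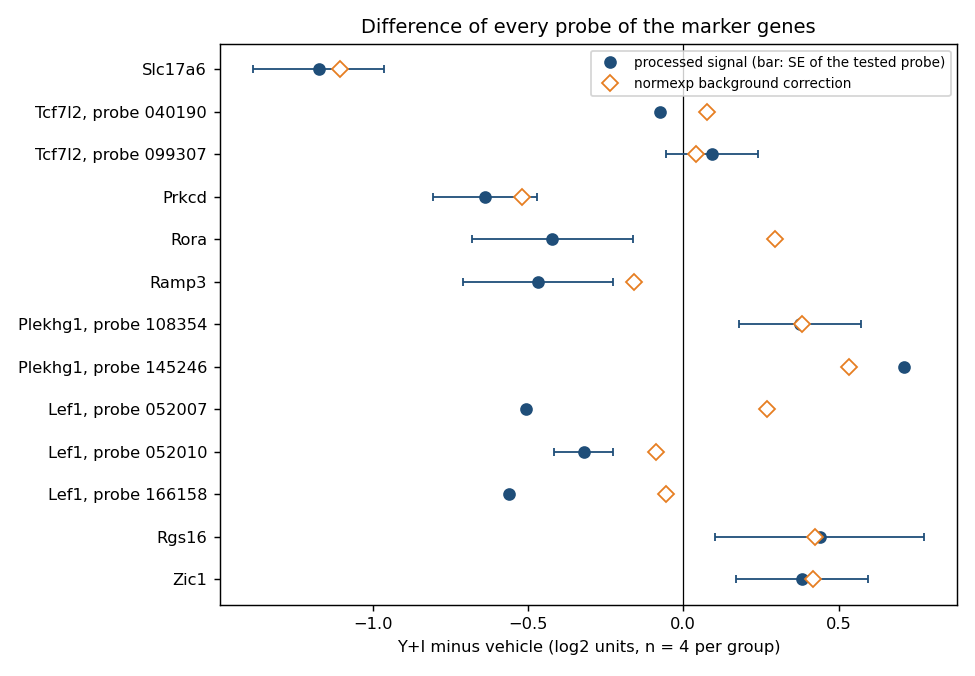
Difference between the group means (Y+I minus vehicle, log2 units, 4 animals per group) for each of the 13 probes of the 9 tested markers, with the processed signal (filled circles) and after normexp background correction (open diamonds). Bars are the limma SE of the probe used for each gene. Slc17a6 and Prkcd stay below 0 at similar values, whereas the 3 Lef1 probes move towards or past 0 and Rora changes sign from -0.42 to 0.30.

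Lef1 was measured by 3 probes, of which 2 cover nearly the same stretch of the gene and the remaining one a later stretch. Their sequences are shown because they read the same locus with different letters. The first pair overlaps by 52 bases, 48 of them identical. Capitals mark the 4 bases at which the first pair differs, and all sequences run 5′ to 3′ as the array files give them, with positions on rn4.
Lef1 probe A_64_P166158, chr2:228659730-228659789: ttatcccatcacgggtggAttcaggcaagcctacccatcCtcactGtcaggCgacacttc
Lef1 probe A_64_P052007, chr2:228659738-228659797: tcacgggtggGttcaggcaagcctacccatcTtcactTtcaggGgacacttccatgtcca
Lef1 probe A_64_P052010, chr2:228668698-228668757: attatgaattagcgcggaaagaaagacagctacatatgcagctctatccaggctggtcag
Counted from the first base of the overlap, the changes from the first to the second sequence are A11G, C32T, G38T and C44G.

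On the brightest of these, A_64_P052010, vehicle animals 1 to 4 had signals of -2.98, -3.15, -3.11 and -3.11 and Y+I animals 1 to 4 had -3.31, -3.47, -3.54 and -3.31. Every Y+I animal lay lower than every vehicle animal, within a small range. The log2 difference of -0.32 had an SE of 0.095, or 1.25-fold (limma adjusted p = 0.139). The probe A_64_P166158 gave -0.56, again with no overlap. Its close relative A_64_P052007 gave -0.51 with overlap, since Y+I animal 3 read -4.98 while the 3 other Y+I animals lay between -6.89 and -6.51. After normexp correction the 3 probes gave -0.09 (A_64_P052010), -0.06 (A_64_P166158) and 0.27 (A_64_P052007), all with overlapping groups, so the lower Lef1 level depends on the background correction.

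Rora encodes a nuclear receptor that binds DNA as a monomer and is expressed in thalamic relay neurons. Its probe was dim, at -6.13, -6.81, -6.94 and -6.73 in vehicle animals 1 to 4 and -7.23, -7.55, -7.11 and -6.41 in Y+I animals 1 to 4. The groups overlapped because Y+I animal 4 lay above 3 of the vehicle animals. That animal's array was also the only Y+I array on which the Rora probe was well above background. The log2 difference of -0.42 had an SE of 0.26 (limma adjusted p = 0.489) and turned to 0.30 after normexp correction.

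Zic1 encodes a zinc-finger transcription factor known from the medial habenula, from cerebellar granule neurons and from cells of the meninges. Vehicle animals 1 to 4 read -6.53, -6.59, -6.48 and -6.67, a narrow range, and Y+I animals 1 to 4 read -6.01, -6.83, -6.20 and -5.70. Y+I animal 2 was below all vehicle animals and the 3 other Y+I animals were above them. The log2 difference of 0.38 had an SE of 0.21 (limma adjusted p = 0.439), and the probe was above background in Y+I animals 1 and 4 and not in the others.

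Gbx2, a homeobox gene of the developing thalamus, was not well above background on any vehicle array and was so on 1 Y+I array, that of animal 3. Its vehicle values lay between -8.91 and -8.72 and its Y+I values were -8.26, -6.55, -5.88 and -8.49, so no fold change is given. The lowest signal that counted as well above background was itself higher on the arrays of Y+I animals 2 and 3, at -7.66 and -7.42, than on vehicle arrays, where it lay between -9.66 and -8.28.

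The markers differed in how widely they were detected. Slc17a6, Tcf7l2, Prkcd, Ramp3, Plekhg1 and Lef1 were well above background on all 8 arrays, and 4 of these 6 lay lower in Y+I by sign and 2 higher. Rora, Rgs16 and Zic1 met the filter through their vehicle arrays alone, so that their entry into the test itself depended on vehicle. The SD between animals was larger in Y+I than in vehicle for 9 of 9 tested markers, as it was for 77.8% of all features.

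To ask whether the markers moved together in each animal, they were set against each other animal by animal within each group, which leaves out the difference between the groups. In vehicle, animal 1 was above the group mean for 8 of the 9 markers, beside 46.7% of all features, though by only 0.01 for Rgs16 and 0.04 for Zic1. It was the highest of its group for 6 (Slc17a6, Tcf7l2, Prkcd, Rora, Ramp3 and Lef1). Over all features, vehicle animal 1 was the highest in 26.1%. Its median deviation from the group mean was 0.12 log2 units over the markers, with a range of -0.10 to 0.52, against -0.01 over all features. Vehicle animal 3 was lowest for 4 (Slc17a6, Rora, Ramp3 and Rgs16), where it was lowest for 26.1% of all features.

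In Y+I, animal 2 was below the group mean for all markers except Tcf7l2, so that 1 of the 9 lay above it, beside 47.1% of all features. Animal 4 was highest for 5 (Slc17a6, Rora, Plekhg1, Lef1 and Zic1), beside 31% of all features, and lowest for Prkcd. Y+I animal 2 was lowest in the group for 5 (Rora, Ramp3, Plekhg1, Rgs16 and Zic1), beside 32.8% of all features, and highest for Tcf7l2. Its median deviation of -0.48 shrank to -0.035 after normexp correction and to -0.085 over the 6 markers well above background on all 8 arrays. The 5 that lay lowest in Y+I animal 2 include Rora, Rgs16 and Zic1, none of which was above background on that array.

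**Figure D3:**
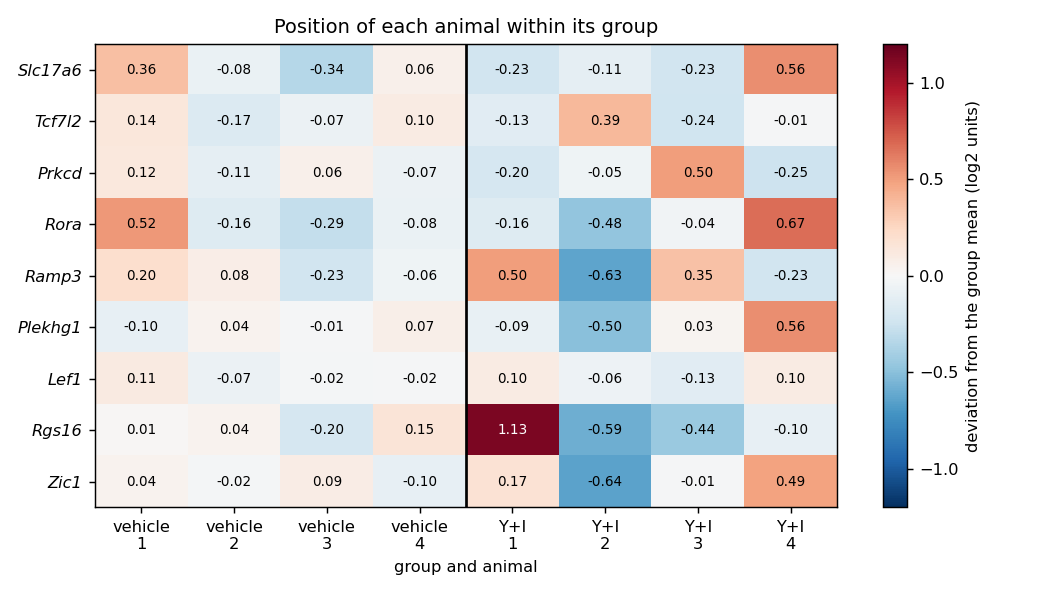
Deviation of each animal from the mean of its own group, in log2 units, for the 9 tested markers (rows) in 4 vehicle and 4 Y+I animals (columns); red is above and blue below the group mean. Vehicle animal 1 is above its group mean for 8 of the 9 markers, and Y+I animal 2 is above its group mean for 1, Tcf7l2. In the other animals 2 to 5 markers lie above. Within Y+I, Slc17a6 is highest in animal 4 (0.56), Prkcd in animal 3 (0.50) and Ramp3 and Rgs16 in animal 1 (0.50 and 1.13).

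Slc17a6 and Prkcd, both lower in Y+I with no overlap of the groups, differed in their order within Y+I. Slc17a6 was highest in Y+I animal 4, by 0.56 above the group mean, where Prkcd was lowest, at -0.25. Prkcd was highest in Y+I animal 3, by 0.50, where Slc17a6 was at -0.23. Both lay below the group mean in Y+I animal 1, at -0.23 and -0.20, and in animal 2, at -0.11 and -0.05. They thus shared the sign of their deviation in animals 1 and 2 and had opposite signs in animals 3 and 4.

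Likeness to Slc17a6 was measured over the 8 arrays as the mean absolute difference between profiles, each centred on its own mean. This measure includes the difference between the groups. The nearest named genes were Stac2 (0.0977 log2 units), Rdh16 (0.11), Nxnl2 (0.15), Msln (0.158) and Adcyap1 (0.16), of 18794 features ranked. Among the markers, Rora ranked 491, Lef1 1221, Prkcd 1230 and Ramp3 2950, and the others lay far down, with Tcf7l2 at 12287, Plekhg1 at 17501, Zic1 at 17524 and Rgs16 at 17829. None of the other thalamus and habenula markers was thus among the nearest named genes given above, and Rora came closest. The measure depends on the size of the differences as well as on the order of the animals.

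Stac2, which encodes an adaptor of voltage-gated calcium channels, followed Slc17a6 most closely. Its signals were -0.42, -1.05, -1.28 and -0.82 in vehicle animals 1 to 4 and -2.05, -2.17, -2.24 and -1.74 in Y+I animals 1 to 4. As for Slc17a6, vehicle animal 1 and Y+I animal 4 were the highest of their groups and vehicle animal 3 the lowest. The nearest genes were picked for likeness over these same arrays, so a shared order and group difference follow from that choice. The log2 difference was -1.16 with an SE of 0.19 (limma adjusted p = 0.0222). Adcyap1, the gene of the neuropeptide PACAP, had a log2 difference of -1.07 that did not pass (adjusted p = 0.0842), and -0.63 after normexp correction. The 3 others met the filter through vehicle alone: in Y+I, Rdh16 and Msln were well above background on 1 array each and Nxnl2 on 3. Their likeness also depended on the background correction. With normexp, Msln turned from -1.11 to 0.043, Rdh16 went from -1.04 to -0.03 (adjusted p = 0.923) and Nxnl2 from -1.30 to -0.16 (adjusted p = 0.568). Stac2 kept its call, at -0.93 (adjusted p = 0.0135).

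Other genes known from the thalamus were taken as a list of 20, which does not include the markers above. Of these, 16 were tested, 1 rose (Ptpn3) and 0 fell at an adjusted p under 0.05 in limma, beside 0.739% and 1.6% of all features. Without adjustment, 10 of the 16 had p under 0.05, beside 15.6% of all features. The groups did not overlap for 4 that lay lower in Y+I and for 5 that lay higher, beside 6.65% and 5.04% of all features. Their median log2 difference was 0.09, and it stayed between 0.04 and 0.19 over 21 settings of the analysis. The median of the 9 markers ran from -0.42 to 0.040 over the same settings, with normexp the one that put it above 0. Shox2, Foxp2 and Pou4f1, transcription factors of this list, were not well above background on any array.

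Ptpn3, a protein tyrosine phosphatase, had signals of -2.80, -2.44, -2.49 and -2.63 in vehicle animals 1 to 4 and -1.70, -2.16, -1.45 and -1.64 in Y+I animals 1 to 4. All Y+I animals lay above all vehicle animals, with a log2 difference of 0.85 (adjusted p = 0.033). Cacna1g, the T-type calcium channel subunit behind burst firing of relay neurons, lay on the lower side without passing, with a log2 difference of -0.94 (adjusted p = 0.0595). Calb2, the calcium-binding protein calretinin, had -0.83 (adjusted p = 0.0571) and Cbln1, a secreted synapse organiser, had -1.54 (adjusted p = 0.1004). Groups did not overlap for any of these 3, and in Cbln1 vehicle animal 1 stood highest at -0.35 while the other vehicle animals lay between -2.44 and -1.75.

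Other genes known from the habenula gave a list of 15, of which 8 were tested. Of these, 1 rose (Tac3) and 0 fell, beside 0.739% and 1.6% of all features. Without adjustment 5 of the 8 had p under 0.05, beside 15.6% of all features. The groups did not overlap for 2 that lay lower and 3 that lay higher, beside 6.65% and 5.04% of all features. The lists share genes, so these counts are not independent of the others. The 2 lower ones are Calb2, also listed for the thalamus, and Tac1, also listed for the striatum. Zic4 is also listed among the relatives of the markers. The genes that define the medial habenula most sharply were dim: Pou4f1, Gpr151, Chrnb3, Isl1 and Irx2 were not well above background on any of the 8 arrays, and Chrna3 was so on 3 vehicle arrays and on 0 Y+I arrays. Tac3, which encodes neurokinin B and is also expressed outside the habenula, went from 1.63 ± 0.14 to 2.44 ± 0.24, a log2 difference of 0.81 (adjusted p = 0.0255). Zic4, a neighbour and relative of Zic1, had a log2 difference of 0.73 with no overlap of the groups (adjusted p = 0.101), on the same side as Zic1. The serotonin receptor gene Htr5b had 0.53 (adjusted p = 0.107).

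Relatives and partners of the markers were taken as a list of 24, with 20 tested. Of these, 2 fell (Rgs4 and Ramp1) and 0 rose, beside 1.6% and 0.739% of all features. Rgs4, a relative of Rgs16 that is abundant in forebrain neurons, had signals of 2.88, 1.99, 1.90 and 2.52 in vehicle animals 1 to 4 and 0.40, 0.33, 0.05 and 0.59 in Y+I animals 1 to 4. The groups stood far apart, with a log2 difference of -1.98, an SE of 0.22 and a 3.95-fold change (limma adjusted p = 0.00616), and Rgs4 passed whichever array was left out. Of the other calls in these lists, fewer held when an array was left out: Ptpn3 passed in 1 of 8 such fits, Ramp1 in 2 and Tac3 in 4, with adjusted p of up to 0.107, 0.0909 and 0.0925, each of these without vehicle animal 4. Ramp1, which makes the calcitonin receptor-like receptor bind CGRP, went from 2.61 ± 0.21 to 1.74 ± 0.24 (log2 difference -0.88, adjusted p = 0.0263), and Ramp3 lay on the same side without passing. Prkca, a calcium-dependent relative of Prkcd, lay on the opposite side with 0.61 (adjusted p = 0.0647).

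**Figure D4:**
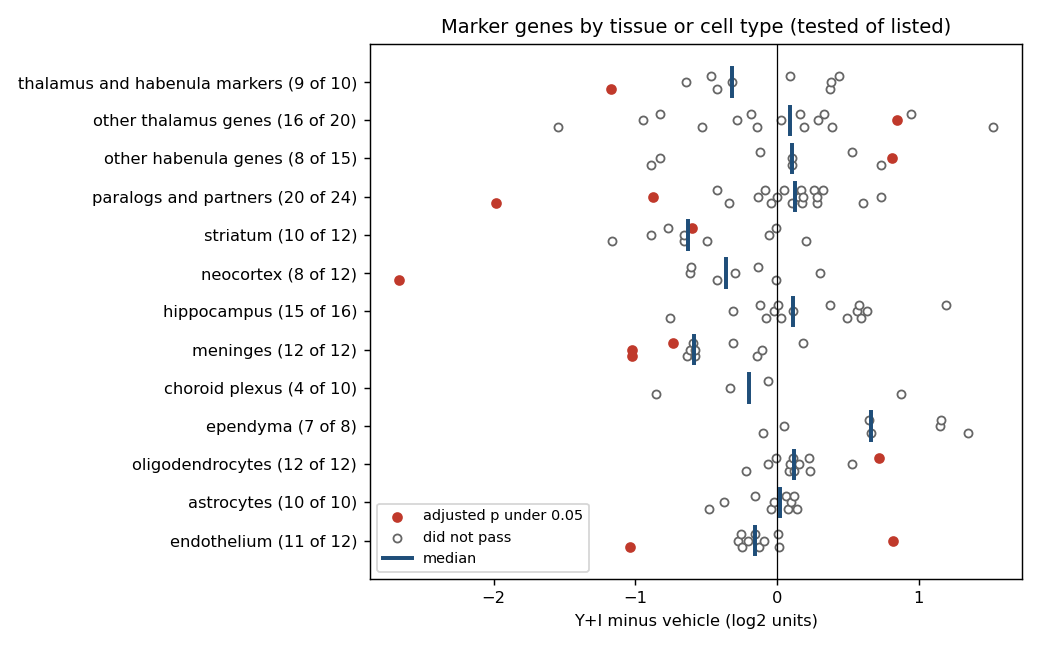
Log2 difference (Y+I minus vehicle) of each tested gene in the marker lists, one row per list with the number tested of those listed. Filled red points passed an adjusted p of 0.05 in limma, open points did not, and blue bars are list medians. The thalamus and habenula markers have a median of -0.32 and 1 gene that passed, while the other thalamus genes and the other habenula genes have medians of 0.09 and 0.10.

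Genes of other tissue that a dissection can include were read beside Slc17a6. Of 12 genes of the meninges, 12 were tested and 3 fell (Slc6a13, Col1a1 and Igfbp2), beside 1.6% of all features. Without adjustment 7 had p under 0.05, beside 15.6% of all features. For 6, all lower, the groups did not overlap, beside 6.65% of all features in that direction. Their median was -0.59, or -0.49 with normexp, and their summed linear signal, relative to the 75th percentile of each array, ranged from 6.79 to 8.31 in vehicle and from 4.69 to 5.31 in Y+I. Of 12 striatal genes, 10 were tested and 1 fell (the dopamine receptor gene Drd2), again beside 1.6% of all features. Drd2 passed in 2 of the 8 fits that left out 1 array. For 5 striatal genes, all lower, the groups did not overlap, beside 6.65% of all features in that direction. The same 5 had p under 0.05 without adjustment, beside 15.6% of all features. One of them, Drd1, was well above background on 0 Y+I arrays. The striatal median was -0.63, or -0.23 with normexp, and the sums were 10.1 to 10.9 in vehicle and 8.80 to 9.59 in Y+I. Of 12 neocortical genes, 8 were tested and the median was -0.36, or -0.24 with normexp. The 1 that fell, Rprm, was well above background on 0 Y+I arrays and so met the filter through vehicle alone; with normexp it went from -2.67 to -0.51 and did not pass (adjusted p = 0.0768). The sum over the 9 tested thalamus and habenula markers ranged from 2.198 to 2.99 in vehicle and from 1.51 to 1.87 in Y+I. That sum includes Slc17a6 itself and adds probes whose signals are not on a common scale. The sums of the other thalamus genes, 15.2 to 17.9 in vehicle and 18.5 to 19.8 in Y+I, and of the other habenula genes, 6.87 to 7.498 and 8.43 to 10.3, were higher in Y+I with no overlap. Such sums are weighted towards their brightest genes. In the habenula sum this is Tac3, the gene that passed, with mean log2 signals of 1.63 in vehicle and 2.44 in Y+I. That sum thus does not give the direction of the other habenula genes. Of the hippocampal genes, 0 of the 15 tested passed in limma, and 5, all higher in Y+I, had p under 0.05 without adjustment, beside 15.6% of all features. For 3, all higher, the groups did not overlap, beside 5.04% of all features in that direction. The sum of these 15 ranged from 68.9 to 95.2 in vehicle and from 101 to 114 in Y+I. What part differences in dissection have in the lower Slc17a6 signal was not tested.

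Among the remaining lists, 1 of 12 tested oligodendrocyte genes rose (Aspa). Of 11 tested endothelial genes, 1 rose (Slc2a1) and 1 fell (Kdr). Over all features, 0.739% rose and 1.6% fell. With 1 array left out at a time, Kdr passed in 8 of 8 limma fits, Aspa in 3 and Slc2a1 in 1. Adjusted p then reached 0.0996 for Aspa and 0.141 for Slc2a1. Slc2a1 also missed the threshold with median normalisation (limma adjusted p = 0.0632) and with the value table (0.0528). Of the astrocyte, ependymal and choroid plexus genes, 0 of 10, 0 of 7 and 0 of 4 passed in limma. Without adjustment, 1, 5 and 2 of them had p under 0.05, beside 15.6% of all features. The ependymal genes had the highest median of all lists, 0.66, with 1 of 7 below 0, and it lay between 0.43 and 0.82 over the 21 settings. The choroid plexus sum was the most variable, from 0.292 to 4.599 in vehicle and from 0.378 to 1.52 in Y+I. Vehicle and Y+I overlapped in that sum. They did not overlap, with Y+I lower, in the sums of the marker, meninges, striatal and neocortical genes. With Y+I higher, they also did not overlap in the sums of the other thalamus, other habenula (weighted towards Tac3) and hippocampal genes.

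Promoters were examined for the elements bound by factors that are themselves among the markers: CTTTGA, the core bound by TCF7L2 and LEF1, and AGGTCA, the core bound by RORA. Both strands of the 250 bases upstream of each start were searched in RefSeq sequences of assembly GRCr8, which held 9 of the 10 genes. Slc17a6 had CTTTGA, as did 13.9% of 33469 promoters, and it was the only one of the 9. Prkcd, Plekhg1 and Rgs16 had AGGTCA on the reverse strand, as did 14.1% of all promoters on either strand. A match is a description of letters and not a binding site. The windows of the gene that passed, of Prkcd and of Plekhg1, which lay on opposite sides, are shown with the matched element in capitals, 5′ to 3′ along the gene.
Slc17a6, chr1:110348197-110348446, plus strand: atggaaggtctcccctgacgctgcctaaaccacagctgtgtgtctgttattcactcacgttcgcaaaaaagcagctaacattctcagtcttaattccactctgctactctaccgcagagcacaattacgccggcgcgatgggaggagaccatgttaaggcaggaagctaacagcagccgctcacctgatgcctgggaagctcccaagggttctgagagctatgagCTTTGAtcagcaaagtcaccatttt
Prkcd, chr16:5805840-5806089, minus strand: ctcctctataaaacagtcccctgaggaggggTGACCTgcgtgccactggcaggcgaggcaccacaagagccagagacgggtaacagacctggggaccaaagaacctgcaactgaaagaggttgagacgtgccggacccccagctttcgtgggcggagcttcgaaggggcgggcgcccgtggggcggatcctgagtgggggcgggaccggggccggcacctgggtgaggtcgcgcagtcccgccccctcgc
Plekhg1, chr1:42754490-42754739, plus strand: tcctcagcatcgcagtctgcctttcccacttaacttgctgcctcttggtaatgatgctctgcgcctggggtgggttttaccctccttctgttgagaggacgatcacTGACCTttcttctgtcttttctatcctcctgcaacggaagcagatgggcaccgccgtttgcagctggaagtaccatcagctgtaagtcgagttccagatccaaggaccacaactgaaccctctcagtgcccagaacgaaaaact
The element began 25 bases upstream of the start in Slc17a6, 219 in Prkcd and 144 in Plekhg1. The 3 windows also differ in composition, with a GC content of 50.8% in Slc17a6, 67.6% in Prkcd and 52.0% in Plekhg1, beside a median of 51.2% over all promoters. The windows of Tcf7l2 and Gbx2 were richer, at 73.6% and 76.4%, with 32 and 38 CpG dinucleotides.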

How the data were processed

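Hippocampal RNA of 4 vehicle and 4 Y+I rats was hybridised, labelled with Cy3, to 1-colour Agilent arrays, and groups and animal numbers come from the sample titles; animals are the replicates. Per the file headers, the deposited spot intensity is the background-subtracted processed signal of Agilent Feature Extraction 10.5.1.1. The deposited value table holds log2 values on a scale not given in the sources used here; its columns had a slope of 0.996 to 0.997 on the scanner values, with medians of -3.51 to -3.35. It served as an alternative.

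From each array's log2 processed signals, their 75th percentile over noncontrol spots was subtracted, so they are relative and carry no unit. Outlier spots were left out, spots of a probe averaged, and 21370 of 30367 probes kept: a kept probe had at least 50% of its spots well above background on each of the 4 arrays of vehicle or of Y+I, and 3 or more values in both. Low signals near background are surrogates, which can change a dim gene's difference. A gene was represented by its brightest kept probe. Names were updated through RefSeq (18004 probes by accession, 2320 by symbol, 626 by synonym; 1999 kept the file's name and 7418 had none). Vehicle and Y+I were compared by limma 3.58.1 (lmFit, then eBayes, two-sided tests) under R 4.3.3, with Benjamini-Hochberg adjustment over 18803 features and a threshold of 0.05; "lower" and "higher" without a test give the sign only. The procedure was tested on simulated data. Alternatives were quantile, median and cyclic loess normalisation, normexp (offset 50), other filters on dim probes, the value table, the mean of a gene's probes, the animal number as a block, a trended and robust variance, array weights, and each animal left out.

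The markers, the other lists and the alternatives were chosen with earlier results of these data known. All 10 markers are named; of the thalamus, habenula and relatives lists, the members that passed and otherwise the 4 with the smallest p; of each other list at most 2 with the smallest p, to which Igfbp2 was added after its value was seen; and the 5 named features nearest to Slc17a6. Probe positions are those of the files, on rn4, and exon or UTR location was not used here. Python 3.11.15 with matplotlib 3.10.9 drew the figures.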

Additional observations from a re-analysis of the deposited data

Results flagged for a closer look

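One animal stood apart from its group for Slc17a6. Y+I animal 4 had a normalised log2 signal of -0.17, while the 3 other Y+I animals lay between -0.96 and -0.85. The gap between it and its nearest neighbour was 0.852 of the range of the group, above Dixon's critical value for 4 samples. This was the only one of 28 groups of marker probe values that exceeded it, and chance alone does so in about 1 of 20 groups. Without that animal the log2 difference of Slc17a6 was -1.36 (limma adjusted p = 0.0159).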

How the results depend on the processing

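The count of all features that passed was 439. It was 665 with cyclic loess, 3887 without a filter on background, 775 at an adjusted p under 0.10 and 164 without Y+I animals 2 and 3; leaving out one animal at a time gave 121 (without vehicle animal 4) to 355 (without Y+I animal 3). Of the markers, 1 passed (Slc17a6). With normexp it was 2 (Slc17a6 and Plekhg1), and 2 also without a filter on background or with array weights (Slc17a6 and Prkcd both times). Leaving out one animal gave 0 to 1, that 1 being Slc17a6 when vehicle animal 3 or else Y+I animal 4 was left out, and Prkcd when Y+I animal 3 was; where 0 passed in limma, 3 to 5 had p under 0.05 without adjustment. The median log2 difference of the markers, -0.32, was 0.040 with normexp and -0.11 without a filter on background. The same medians over all features were -0.02, 0.090 and 0.057. The median deviation of Y+I animal 2, -0.48, was -0.035 with normexp and -0.085 with a filter on all 8 arrays. Msln reversed with normexp, to 0.043 (adjusted p = 0.867). The cause of these shifts was not tested.

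Same-numbered animals did not deviate together (correlations of 0.05, -0.11, -0.04 and 0.04 over all features), so the numbers are not used as pairs. With the replicate number as a block, 144 features and 0 markers passed in limma (3 markers at p under 0.05 without adjustment), with Slc17a6 at an adjusted p of 0.063. Ptpn3, Tac3, Ramp1 and Drd2 also missed the threshold with it (adjusted p of 0.102, 0.0685, 0.116 and 0.102). Rora, Rgs16, Zic1 and Gbx2 were near background, and their differences are limited by it.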
